A study of Mus musculus with 4 samples.

Results

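A set of 10 genes that mark CD8 T cells, natural killer (NK) cells and cytotoxic lymphocytes in general was examined in T cells that had been sorted to be CD4+ and naive. The genes were chosen by symbol: Cd8a, Cd8b1, Klrd1, Klrk1, Nkg7, Ccl5, Gzma, Gzmb, Ncr1 and Prf1. All 10 were on the array, out of 22180 genes with a probe set that the platform annotation pairs with 1 symbol, and each had 1 such probe set. TACI-/- cells were compared with WT cells, both from C57BL/6 mice, with 2 arrays per genotype. TACI is a receptor for the cytokines BAFF and APRIL that is encoded by Tnfrsf13b. Cells of both genotypes were taken from spleens together with lymph nodes, as pools, and were sorted by surface markers that include CD4, low CD44 and no CD25. The labels call the arrays of a genotype biological replicates; how many mice a pool held, and their age, are not given in the sources used here.

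CD8 is the coreceptor that cytotoxic T cells use to bind class I major histocompatibility molecules, and it is a dimer of an alpha chain with either a beta chain or a second alpha chain. NK cells lack a rearranged antigen receptor and read class I molecules and stress ligands through germline-encoded receptors, many of them lectin-like and encoded together in the NK gene complex. Both cell types kill by releasing granules that hold perforin and granzymes. In naive CD4+ T cells the CD8 genes are silenced during development in the thymus, and the granule programme is usually off.

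The stretch before the start of a gene is shown for 4 of the genes, since a sequence feature was common to most of the set. RefSeq start-site windows (GRCm38.p6), which span 250 bases before to 50 after a transcript start, were at hand for 7 of the 10 genes; Cd8b1, Klrd1 and Ccl5 had none in the table. Windows are printed for Prf1 (chr10:61297586-61297885, plus strand) and Nkg7 (chr7:43436888-43437187, plus strand), which were well above the low-value level described below, and for Gzmb (chr14:56262285-56262584, minus strand) and Klrk1 (chr6:129623815-129624114, minus strand), which were below it on every array. Each reads 5′ to 3′ on the strand of the gene. Capitals mark the core motif of Runx factors, TGTGGT or its reverse complement ACCACA, and, in Nkg7 alone, the T-box motif AGGTGTGA.
Prf1: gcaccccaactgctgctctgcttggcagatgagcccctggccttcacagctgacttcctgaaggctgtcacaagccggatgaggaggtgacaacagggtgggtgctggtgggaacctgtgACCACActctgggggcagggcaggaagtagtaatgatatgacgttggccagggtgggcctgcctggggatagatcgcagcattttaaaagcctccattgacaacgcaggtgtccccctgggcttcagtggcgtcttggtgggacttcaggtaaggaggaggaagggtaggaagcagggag
Nkg7: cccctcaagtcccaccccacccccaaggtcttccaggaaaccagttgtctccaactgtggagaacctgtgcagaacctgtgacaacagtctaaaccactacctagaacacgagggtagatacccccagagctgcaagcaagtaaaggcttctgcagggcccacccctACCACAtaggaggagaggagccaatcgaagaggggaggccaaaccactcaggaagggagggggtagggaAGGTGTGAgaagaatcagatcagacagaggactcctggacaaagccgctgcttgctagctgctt
Gzmb: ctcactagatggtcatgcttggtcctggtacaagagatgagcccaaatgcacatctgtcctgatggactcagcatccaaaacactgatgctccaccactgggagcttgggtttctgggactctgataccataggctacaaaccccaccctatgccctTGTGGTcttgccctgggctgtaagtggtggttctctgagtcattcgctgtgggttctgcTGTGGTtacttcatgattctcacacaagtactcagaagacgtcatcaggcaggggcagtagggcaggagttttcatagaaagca
Klrk1: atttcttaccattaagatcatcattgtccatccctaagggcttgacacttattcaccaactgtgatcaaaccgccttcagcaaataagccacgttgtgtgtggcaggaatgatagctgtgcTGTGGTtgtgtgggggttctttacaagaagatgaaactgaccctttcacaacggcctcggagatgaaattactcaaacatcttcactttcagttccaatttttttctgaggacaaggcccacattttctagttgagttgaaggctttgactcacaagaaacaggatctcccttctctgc

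The Runx core was present in the windows of 6 of the 7 genes, Klrk1, Nkg7, Gzma, Gzmb, Ncr1 and Prf1, and not in that of Cd8a. It was found, on either strand, in 16.8% of all 32851 windows of this length and in 18.9% of the 27025 genes they belong to. In the lists of other genes used here, the share of genes with a match was 62.5% for receptor adaptors (5 of 8), 55.6% for other granule genes (10 of 18), 55.6% for chemokines and cytokines (5 of 9), 33.3% for lineage regulators (4 of 12) and 30.8% for NK receptors (8 of 26), and it was 42.9% for myeloid and erythroid markers (3 of 7), 25% for B cell markers (1 of 4), 12.5% for T cell and sort markers (1 of 8) and 0 of 2 for innate-like T cell markers. The T-box motif was found in 1 of the 7 genes, against 1.48% of all genes with a window. Runx3 and the T-box factors Tbx21 and Eomes are known as regulators of the cytotoxic programme, which is why these motifs were searched for; they were chosen after the windows had been seen, so the shares are a description. The motif was present both in genes above and in genes below the low-value level, and a match of letters does not show that a factor binds there.

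**Figure D1:**
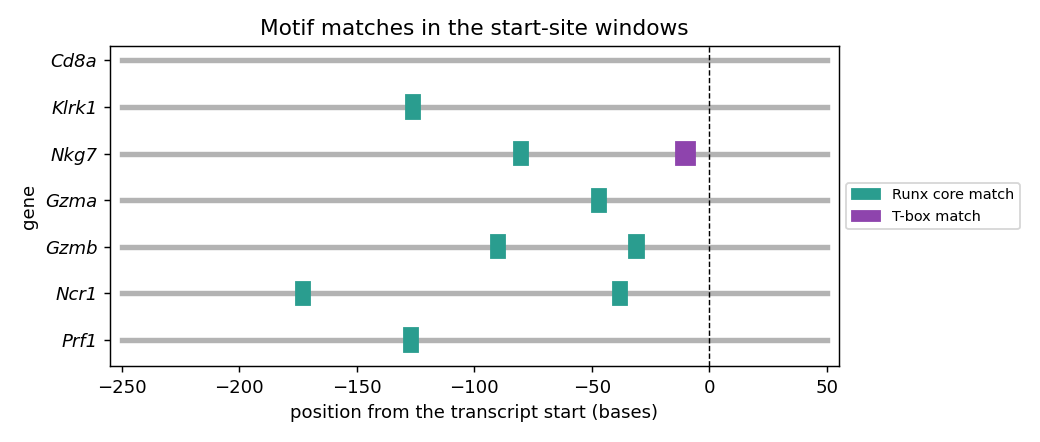
Positions of motif matches in the start-site windows of the 7 genes that had one, in bases from the transcript start (dashed line), with green blocks for the Runx core and a purple block for the T-box motif on either strand (for Ncr1, the first of its windows is drawn). A Runx core match is seen in 6 of the 7 genes, all before the start site.

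Levels are on the log2 scale of the deposited array values. As a low-value mark served the 40th percentile, on each array, of the probe sets that carry 1 symbol. It lay at 3.74 and 3.77 on TACI-/- replicates 1 and 2 and 3.74 on both WT arrays. Array correlations over the tested genes were 0.976 to 0.984, and no array stood apart. The targeted gene Tnfrsf13b was at 2.73 and 3.09 in TACI-/- cells, against 2.95 and 3.02 in WT cells, below the mark throughout, so it does not check the genotype labels. Cd4 was at 10.6 and 10.4 in TACI-/- cells, against 10.6 and 10.5 in WT cells. Cd3e, a chain of the T cell receptor complex, was at 11.3 and 11.2 in TACI-/- cells, against 11.6 and 11.4 in WT cells. Values of different probe sets depend on their probes, so each gene was set only against the mark and against itself in the other genotype.

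The 10 genes fell on both sides of the mark. Cd8b1, Klrd1, Nkg7, Ccl5 and Prf1 were above it on all 4 arrays and Ncr1 on 1 array. Cd8a, Klrk1, Gzma and Gzmb were below it on all 4, as were 33.3% of all genes on the array. A test needed at least 2 arrays at or above the mark, which 5 of the 10 genes had, against 62.1% of all genes. The set did not move as a block between the genotypes. Klrd1 and Cd8b1 were lower on both TACI-/- arrays than on both WT arrays, as were 18.1% of all tested genes, and Nkg7 was higher on both, as were 20.5%; Ccl5 and Prf1 overlapped. Ncr1, which was not tested, was lower on both TACI-/- arrays too.

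At an adjusted p under 0.05 (limma, Benjamini-Hochberg over 13782 genes), 0 of the 5 tested genes were called, where 0.138% of all tested genes were. At an unadjusted limma p under 0.05, Klrd1 and Cd8b1 were called, where 8.78% of all tested genes were. Both also met a looser criterion that asks for at least 1.5-fold besides that unadjusted p. It was met by 0.878% of all tested genes as lower in TACI-/- cells and by 2.3% in either direction. The 10 genes were chosen with earlier results of these data known, so these shares describe the set and support no statement about it.

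**Figure D2:**
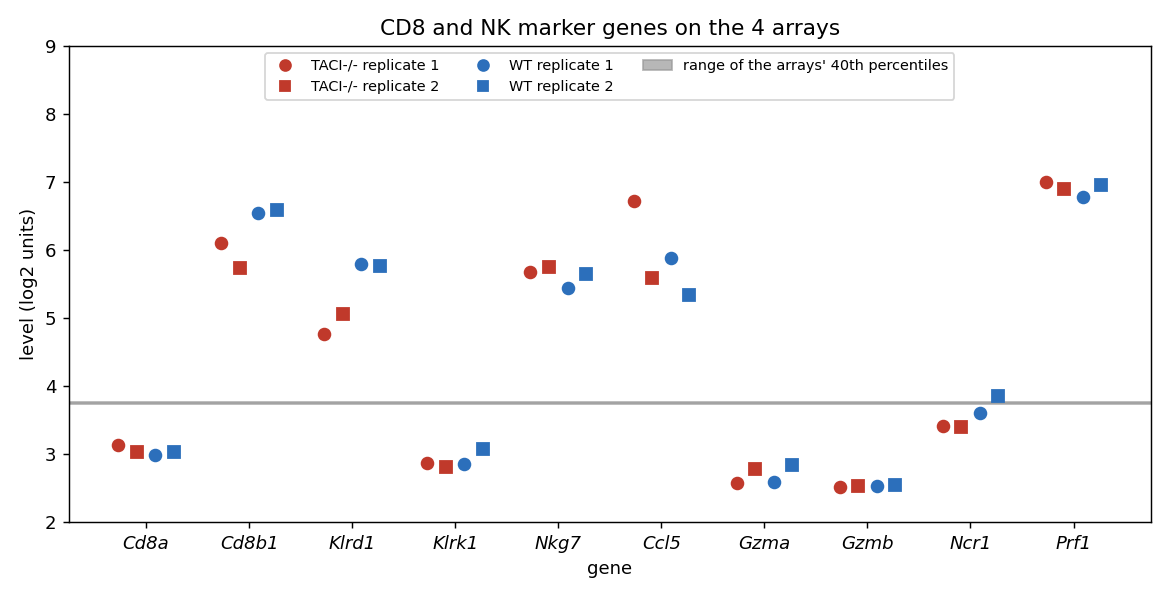
Level of each of the 10 genes (log2 units) on the 4 arrays, with TACI-/- in red left of WT in blue, and the range of the arrays' 40th percentiles as a grey band. Klrd1, Cd8b1 and the dim Ncr1 show red points below blue ones, and Cd8a, Klrk1, Gzma and Gzmb lie under the band on every array; heights of different genes are not comparable.

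The coreceptor genes differed in their position relative to the mark. Cd8b1, which encodes the beta chain of CD8, was at 6.11 and 5.73 in TACI-/- cells, against 6.55 and 6.59 in WT cells. The WT arrays lay close together and above both TACI-/- arrays, which were 0.38 apart. Cd8b1 averaged 5.92 ± 0.27 in TACI-/- cells and 6.57 ± 0.03 in WT cells (SD, n = 2 each), a log2 fold change of -0.65 ± 0.16 (SE; 95% interval -1.04 to -0.25), which is 1.57-fold lower in TACI-/- cells. The unadjusted limma p was 0.00633 and the adjusted p was 0.327 (Benjamini-Hochberg over 13782 genes), so the difference did not pass. With no moderation of the variance the unadjusted p was 0.077, and without TACI-/- replicate 2 the log2 fold change was -0.46. In a bulk sample, fewer cells of a type and less RNA per cell cannot be told apart.

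Cd8a, which encodes the alpha chain that every CD8 dimer needs, was at 3.13 and 3.03 in TACI-/- cells, against 2.99 and 3.03 in WT cells. All 4 values were 0.61 to 0.75 below their array's mark, and the genotypes overlapped. The probe set of Cd8a was thus among the dim ones in either genotype, while that of Cd8b1 was above the mark by 1.96 at its lowest and 2.85 at its highest. The genes lie next to each other on chromosome 6 in the gene order of GRCm38.p6. Of the 5 array genes on either side of Cd8b1 in that order, 6 were tested, with log2 fold changes from -0.13 to 0.20 and none at an unadjusted limma p under 0.05.

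Among the NK receptor genes, Klrd1 had the largest difference of the set. Klrd1 encodes CD94, a lectin-like chain that pairs with NKG2 proteins to bind a nonclassical class I molecule, and is also carried by activated CD8 T cells. It was at 4.76 and 5.06 in TACI-/- cells, against 5.79 and 5.76 in WT cells, with no overlap. Klrd1 averaged 4.91 ± 0.21 in TACI-/- cells, against 5.78 ± 0.02 in WT cells (SD, n = 2 each), a log2 fold change of -0.87 ± 0.15 (SE; 95% interval -1.23 to -0.51) or 1.82-fold lower in TACI-/- cells. The unadjusted limma p was 0.000867, the lowest of the 5 tested genes and rank 62 of 13782, and the adjusted p was 0.189, so it did not pass either. Without each array in turn the log2 fold change lay between -1.02 and -0.72.

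Klrk1, which encodes the activating receptor NKG2D, is the next array gene to Klrd1 on chromosome 6. It was at 2.87 and 2.81 in TACI-/- cells, against 2.85 and 3.08 in WT cells, below the mark on every array. The partner genes of CD94 were measured too. Klrc1, which encodes the inhibitory partner NKG2A, was at 4.51 and 4.35 in TACI-/- cells, against 4.15 and 4.77 in WT cells. The genotypes overlapped for Klrc1, with a log2 fold change of -0.03 ± 0.22 (SE). Klrc2 and Klrc3, which encode further NKG2 proteins, were below the mark on all 4 arrays, as was Klre1 on the other side of Klrd1. Of the 5 array genes on either side of Klrd1, 3 were tested, and none of them had an unadjusted limma p under 0.05; the closest was Mir680-1, with a log2 fold change of -0.47 (unadjusted p = 0.0519).

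Ncr1, which encodes the NK receptor NKp46 and is among the most specific NK cell markers in mice, was at 3.41 and 3.39 in TACI-/- cells, against 3.61 and 3.86 in WT cells. Only WT replicate 2 was above its array's mark, by 0.12, so Ncr1 was not tested in the main comparison. In a fit with no low-value filter its log2 fold change was -0.33 ± 0.15 (SE), with an unadjusted limma p of 0.0639 and an adjusted p of 0.701. Klrb1c, which encodes the NK1.1 antigen of C57BL/6 mice, was below the mark on all 4 arrays.

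The granule genes lay on both sides of the mark. Prf1 encodes perforin, the protein that opens pores in the membrane of target cells. It was at 7.005 and 6.89 in TACI-/- cells, against 6.79 and 6.96 in WT cells, 3.05 to 3.27 above the mark. The genotypes overlapped, and the log2 fold change of Prf1 was 0.08 ± 0.14 (SE; 95% interval -0.26 to 0.41; limma adjusted p = 0.926). A further probe set, annotated to both Prf1 and another gene, was left out because it cannot be assigned to either.

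Nkg7, a membrane protein of cytotoxic granules that takes part in their release, was at 5.68 and 5.75 in TACI-/- cells, against 5.45 and 5.64 in WT cells. Both TACI-/- values were above both WT values, by 0.04 at the nearest. The log2 fold change of Nkg7 was 0.17 ± 0.14 (SE; 95% interval -0.16 to 0.50; limma adjusted p = 0.796). For Prf1 and Nkg7 the intervals leave room for differences of up to 0.41 and 0.50 log2 units, so equal levels in the genotypes are not shown.

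Gzma and Gzmb encode granzymes, serine proteases that enter the target cell through perforin pores, and both were below the mark throughout. Gzmb was at 2.52 and 2.53 in TACI-/- cells, against 2.53 and 2.54 in WT cells. Gzma was at 2.58 and 2.79 in TACI-/- cells, against 2.60 and 2.85 in WT cells. They were 0.89 to 1.24 below it, so that a difference could not be seen for either.

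Ccl5, a chemokine that effector and memory CD8 T cells and NK cells hold ready for release, varied more between replicates than any other gene of the set. It was at 6.72 and 5.59 in TACI-/- cells, against 5.88 and 5.33 in WT cells. TACI-/- replicate 1 stood above the other 3 arrays, and TACI-/- replicate 2 lay between the WT arrays. Ccl5 averaged 6.15 ± 0.80 in TACI-/- cells, against 5.61 ± 0.39 in WT cells (SD, n = 2 each), with a log2 fold change of 0.54 ± 0.37 (SE; 95% interval -0.34 to 1.42; limma adjusted p = 0.749). Its direction rested on TACI-/- replicate 1, without which the log2 fold change was -0.02; without TACI-/- replicate 2 it was 1.11.

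**Figure D3:**
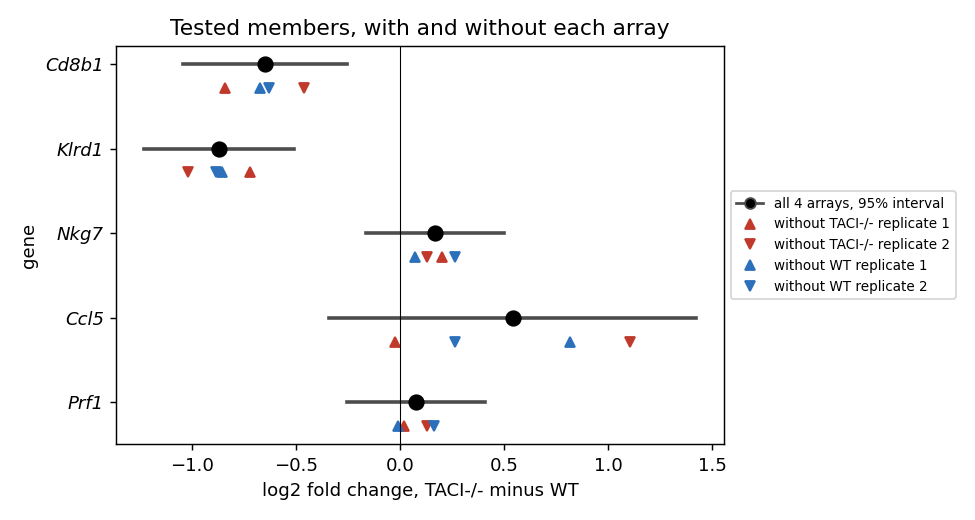
Log2 fold change (TACI-/- minus WT) of the 5 tested genes, with the 95% interval of the fit to all 4 arrays as a bar and the values without each array as triangles below it. Klrd1 stays between -1.02 and -0.72, Cd8b1 between -0.84 and -0.46, and Ccl5 spreads from -0.02 to 1.11.

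The median log2 fold change was 0.08 over the 5 tested genes and 0.01 over all tested genes.

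**Figure D4:**
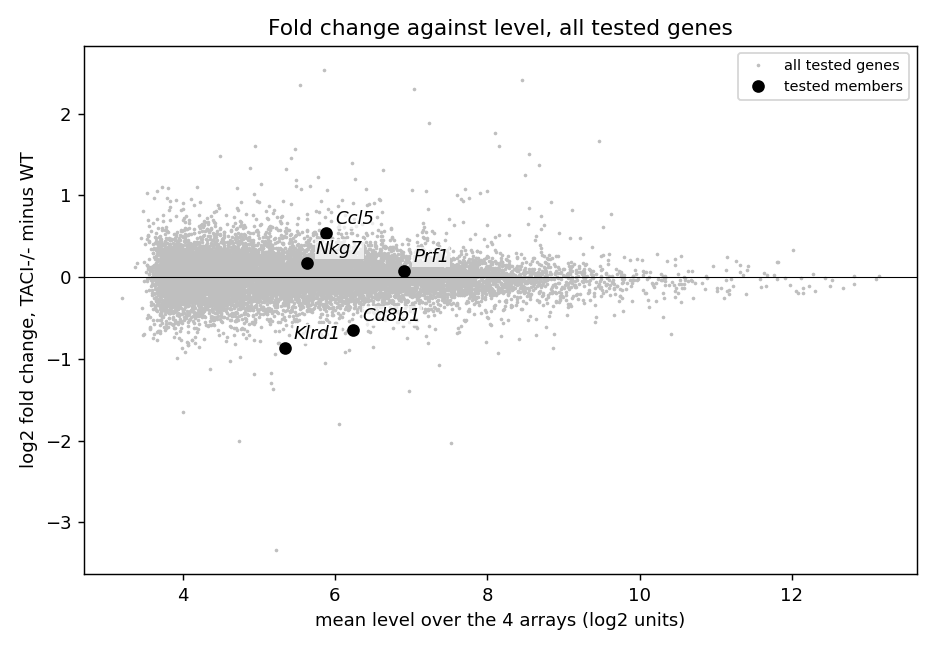
Log2 fold change (TACI-/- minus WT) against mean level over the 4 arrays for all 13782 tested genes in grey, with the 5 tested marker genes in black. Klrd1 at -0.87 and Cd8b1 at -0.65 lie at the lower edge of the cloud, and Prf1 at 0.08 and Nkg7 at 0.17 lie within it.

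Other genes of the cytotoxic programme were compared in lists chosen by function. Of 19 measured genes for granule contents, processing and release, 14 were tested and none passed the adjusted threshold. Their median log2 fold change was 0.07, with 8 positive and 6 negative values. Fasl, the death ligand, was at 6.41 and 6.24 in TACI-/- cells, against 5.35 and 5.64 in WT cells, with 0.83 ± 0.16 (SE) as its log2 fold change (limma adjusted p = 0.221). Stx11, a membrane fusion protein of granule release, had 0.55, Ctsw, a protease of cytotoxic cells, 0.40, and Srgn, the proteoglycan that packs granzymes, 0.22. The genotypes overlapped for Ctsw, at 7.70 and 7.38 in TACI-/- cells, against 6.81 and 7.47 in WT cells. Other granzyme genes lay on both sides of the mark. Gzmk was above it on all 4 arrays, at 4.52 and 3.99 in TACI-/- cells, against 4.31 and 3.97 in WT cells, with a log2 fold change of 0.12 ± 0.22 (SE). Gzmm was above it on 3 arrays, with 0.04 ± 0.18 (SE), and Gzmg on 1 array. Gzmc, Gzmd, Gzmf and Gzmn were below it on all 4. The summed level of the 19 genes was 103 to 105 log2 units in TACI-/- cells, against 98.8 to 102 in WT cells. Over the 14 tested genes it was 89.9 to 91.8 in TACI-/- cells, against 88.1 to 89.8 in WT cells, so the genotypes nearly touched. Over the 5 genes that missed the low-value filter it was 12.8 to 13.1 in TACI-/- cells, against 10.7 to 12.2 in WT cells. These 5 genes were dim, so no difference can be read from their sum or from that of the 19.

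Of 24 measured NK receptor genes, 11 were below the mark on all 4 arrays, 9 were tested and none passed the adjusted threshold. Their median log2 fold change was -0.03. Clec2i, which encodes a ligand of an NK receptor within the NK gene complex on chromosome 6, was at 6.80 and 7.07 in TACI-/- cells, against 7.53 and 7.54 in WT cells. It was the 1 gene of the list past the looser criterion, at -0.60 ± 0.15 on the log2 scale (SE; limma adjusted p = 0.32). Crtam, an adhesion receptor of activated cytotoxic T cells and NK cells, had 0.58 ± 0.17 (SE; limma adjusted p = 0.429). Clec2d and Cd226 had -0.23 and -0.15. The summed level of the 24 genes was 96.3 to 99.4 in TACI-/- cells, against 94.3 to 97.2 in WT cells. Over the 9 tested genes it was 52.0 to 53.0 in TACI-/- cells, against 51.8 to 53.7 in WT cells. The genotypes overlapped in both sums. Over the 15 genes that missed the low-value filter the sum was 44.4 to 46.4 in TACI-/- cells, against 42.5 to 43.5 in WT cells. These genes were dim, so no difference can be read from their sum.

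Among 7 tested signalling adaptors and kinases none passed, and the median log2 fold change was 0.02. Fcer1g, a signalling chain of NK and myeloid receptors, was at 4.25 and 4.24 in TACI-/- cells, against 4.63 and 4.59 in WT cells. Its log2 fold change was -0.36 ± 0.13 (SE; limma adjusted p = 0.515). Hcst, the adaptor of NKG2D, had 0.26, Tyrobp, the adaptor DAP12 of activating NK receptors, 0.25, and Sh2d1a, the adaptor SAP, -0.12.

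Regulators of cytotoxic and CD4 lineages lay mostly on the positive side, with 10 positive and 3 negative log2 fold changes among 13 tested genes. Over all tested genes, 7137 values were positive and 6645 negative. The median of the 13 genes was 0.20, and none passed the adjusted threshold. Il12rb2 was at or above the mark on the TACI-/- arrays alone; without it 9 of 12 values were positive, with a median of 0.17. Il2rb, a receptor chain for the cytokines IL-2 and IL-15, was at 6.42 and 6.03 in TACI-/- cells, against 5.12 and 5.10 in WT cells. Eomes, a T-box factor of NK and memory CD8 T cells, was at 4.99 and 4.62 in TACI-/- cells, against 4.01 in both WT samples. Nfil3, a factor needed for NK cell development, was at 5.04 and 4.76 in TACI-/- cells, against 4.07 and 4.05 in WT cells. In WT cells Eomes was above the mark by only 0.27 and Nfil3 by 0.31 to 0.33. Both were thus dim there, which limits what their fold changes show. Il2rb, Nfil3 and Eomes met the looser criterion as higher (1.42% of all tested genes did), with log2 fold changes of 1.11, 0.84 and 0.79 and limma adjusted p of 0.1, 0.189 and 0.256. Each had both TACI-/- values above both WT values, as did 20.5% of all tested genes. The 3 genes were picked by p and fold on these same arrays, so this adds no support. The direction of these 3 genes was opposite to that of Klrd1 and Cd8b1 on the same arrays. Bulk samples do not show whether these differences lie in the same cells. Runx3, which represses Cd4 and sustains Cd8 expression in the CD8 lineage, had a log2 fold change of -0.04, and Zbtb7b, which fixes the CD4 lineage, -0.08.

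Of 9 tested chemokine, cytokine and homing receptor genes of CD8 and NK cells, 6 had a positive log2 fold change and none passed; the median was 0.12. Tnf, Ccl3 and Xcl1, which encode an inflammatory cytokine and a pair of chemokines of activated lymphocytes, had 0.53, 0.46 and 0.46. Ccl3 was dim, at 4.02 and 4.12 in TACI-/- cells, against 3.48 and 3.74 in WT cells. WT replicate 1 was below the mark for Ccl3, and WT replicate 2 was above it by 0.003. S1pr5, a receptor for exit of NK cells from tissues, had -0.26. Ifng was below the mark on all 4 arrays.

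**Figure D5:**
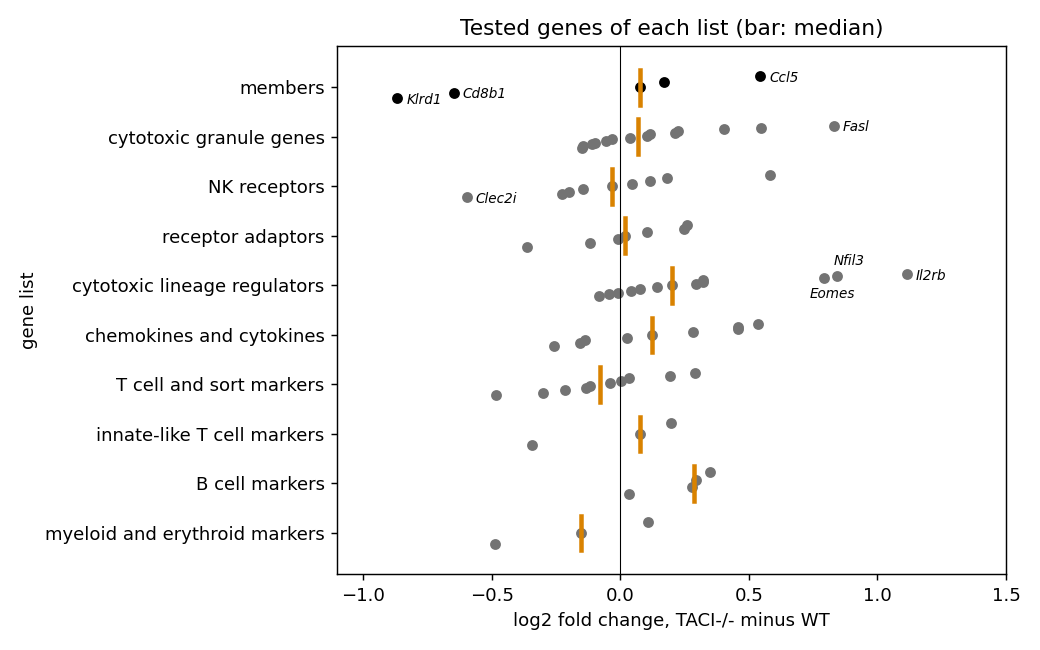
Log2 fold change (TACI-/- minus WT) of each tested gene by list, with the list's median as an orange bar. Klrd1, Cd8b1 and Clec2i lie on the negative side, whereas Il2rb, Nfil3, Eomes and Fasl lie on the positive side.

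Markers of the T cell and of other cell types were measured beside these genes. None of 10 tested T cell and sort markers passed, with a median log2 fold change of -0.08. Il7r, the IL-7 receptor, had -0.48, Cd3d -0.30, Cd3e -0.21, Cd4 -0.04, Cd44 0.19 and Il2ra (CD25) 0.29. Of 3 tested markers of innate-like T cells, Sox13 and Cd163l1 had log2 fold changes of 0.08 and 0.20. The third, the factor Zbtb16, was at 3.57 and 3.64 in TACI-/- cells, below the mark, and 4.03 and 3.87 in WT cells, above it; it entered the test through the WT arrays alone, so its fold change is not given. Of 7 measured myeloid markers, Itgax, Cd14, S100a8 and S100a9 were below the mark on all 4 arrays. The 3 tested ones were Lyz2, the lysozyme of macrophages and neutrophils, with -0.49, Csf1r with -0.15 and Itgam with 0.11. The genotypes overlapped for Itgam. The summed level of the 7 was 24.3 to 24.5 in TACI-/- cells, against 24.95 on both WT arrays. Of 7 measured B cell markers, Ms4a1 and Blk were below the mark on all 4 arrays, and the 4 tested ones had positive values with a median of 0.29. They were Pax5 with 0.28, Cd79a with 0.29, Cd79b with 0.35 and Cd22 with 0.03. The genotypes overlapped for Cd79b and Cd22. The summed level of the 7 B cell markers was 27.8 to 29 in TACI-/- cells, against 26.1 to 27.7 in WT cells, so the genotypes nearly touched. Over the 3 genes that missed the low-value filter the sums overlapped. The part of these markers in the values of Klrd1 and Cd8b1 was not tested.

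Genes whose pattern over the 4 arrays was closest to that of the called pair were found by the mean absolute difference of values centred on each gene's own mean. For Klrd1 they were Mir342, Gm20559 and Cep85, at 0.03 to 0.06 log2 units. For Cd8b1 they were Nipal3, Ggt5 and Olfr331, at 0.04 to 0.05. None of these belongs to the lists of cytotoxic or NK genes, and over 4 arrays such likeness is a description of shape.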

How the data were processed

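Total RNA of sorted naive CD4+ T cells was processed with a biotin label for Affymetrix Mouse Gene 2.0 ST arrays, per the labels' protocols. There were 2 genotypes with 2 arrays each. The deposited log2 values hold 1 number per probe set and array, from 0.944 to 13.2. The submitters' processing notes name RMA and Partek and give neither versions nor roles; that the log base is 2 was taken from RMA and the range. Probe sets with 1 symbol in the platform annotation (23521 of 41345) were used, the brightest per gene. Genes with at least 2 arrays at or above the array's 40th percentile were tested (13782 of 22180) in limma 3.58.1 under R 4.3.3, by lmFit and eBayes with genotype alone in the model, two-sided, at a Benjamini-Hochberg threshold of 0.05. A looser criterion asked for 1.5-fold or more besides an unadjusted p under 0.05. The fit was tested on simulated data with 200 changed genes. It recovered 35.2% of 1.5-fold changes at the adjusted threshold and 52.4% at the looser criterion, and 96.4% and 98.8% of 2-fold ones. These shares hold for the simulated spread. A change near 1.5-fold that did not pass is thus not shown to be absent.

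All 10 genes were named, with up to 4 tested genes per list by p, the sort markers, the lineage factors Zbtb7b and Runx3, the targeted gene and 3 genes of like pattern; any other gene was named once its values were known. The 10 genes and the lists were chosen with earlier results of these data known. Where a list gene had no probe set with 1 symbol, it was not used here. Alternatives were other filters, other variance models, averaging a gene's probe sets, median centring, quantile normalization, a replicate block, and leaving out each array. Nothing in the labels says that a replicate number pairs samples across genotypes. Arrays have no depth, and their number limits the precision. The p-values set a difference against the spread between these samples, which limma moderates by the spread of the other tested genes.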

Additional observations from a re-analysis of the deposited data

How the results depend on the processing

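Klrd1 and Cd8b1 kept their sign, and neither passed adjusted p 0.05, in all 14 alternative limma fits (adjusted p 0.0995 to 0.773 for Klrd1 and 0.217 to 0.905 for Cd8b1). The number of the 10 genes past the looser criterion was 2 without any 1 array; without TACI-/- replicate 2 these were Klrd1 and Ccl5 in place of Cd8b1. With no moderation of the variance it was 1, Klrd1. Leaving out arrays gave log2 fold changes of -0.021 to 1.11 for Ccl5 and -0.0096 to 0.16 for Prf1, which are the 2 genes whose sign turned; that of Prf1 turned without WT replicate 1.

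Over all genes, the 19 calls at adjusted limma p under 0.05 became 3 with no low-value filter, 45 with the filter at the 60th percentile, 12 with quantile normalization again, 46 with a variance trend and 0 with no variance moderation (986 genes at unadjusted p under 0.05). Without any 1 array 0 genes passed, with 687 to 1138 at an unadjusted p under 0.05; such a fit leaves 1 sample in a genotype, assumed to vary like the other. The looser count of 317 became 153 with no moderation and 348 to 556 without 1 array; it was 526 without TACI-/- replicate 2 and 556 without WT replicate 2. The cause of these shifts was not tested. With the replicate number as a block 13 genes passed the adjusted threshold and 329 the looser one. For Ccl5 the block gave an unadjusted p of 0.0245 (adjusted p = 0.52), and for Klrd1 and Cd8b1 adjusted p of 0.218 and 0.391. The differences between replicates 1 and 2 of the genotypes correlated at -0.03 over tested genes, and no call of the 10 genes at the adjusted threshold or the looser criterion changed with the block. The count of the 10 genes at or above the percentile mark stayed at 5, except for 6 with the 20th percentile. Signal over background limits Cd8a, Klrk1, Gzma, Gzmb and Ncr1.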
